A study of Arabidopsis thaliana with 6 samples.

Results

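Antisense lncRNAs are long non-coding RNAs transcribed from the strand opposite another gene. They were taken here as the transcripts that the deposited Arabidopsis thaliana table types as lncRNA and whose span overlaps a protein-coding gene on the opposite strand by at least 1 base. The rule uses type, position and strand, and no measured level. It found 1136 of the 45666 transcripts in the table, which belong to 862 of its 27947 genes. These 862 lncRNA genes, out of 1833 lncRNA genes in all, form 891 pairs with 886 protein-coding partners on all 5 nuclear chromosomes. Of the lncRNA genes, 835 have 1 partner, 25 have 2 and 2 have 3, and 5 partners have more than 1 antisense lncRNA gene.

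The study compared 3 libraries of the mutant cdc5 with 3 libraries of its wild type Col-0, all labelled as rosette leaves. The labels name no allele for cdc5, and its titles can be read either as replicate numbers or as allele names, so the 3 mutant libraries may span more than 1 allele. Age, growth conditions and whether each library came from its own plants are not in the labels, so the p-values describe the spread between the libraries at hand, which may be technical. RNA was selected for poly(A) tails, and the second cDNA strand was marked with dUTP and removed, which keeps the strand of the RNA.

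CDC5 carries MYB-like DNA-binding repeats and belongs to the MOS4-associated complex, the plant relative of the Prp19 complex that joins the spliceosome when it is activated. The spliceosome removes introns from the sense transcript, recognising GT at the start of an intron and AG at its end. An antisense RNA read across such an intron carries the complement of these signals, CT at its own 5′ side and AC at its 3′ side. In Arabidopsis some antisense RNAs regulate their partner, the best studied being COOLAIR opposite the flowering repressor gene FLC.

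Many of the lncRNA models traced a single partner intron. The next sequences are shown because, of the 10 lncRNA genes named below for the highest fold changes in cdc5, these 3 span 1 whole partner intron and reach 20 to 30 bases into the exon on either side. Another 2 of the 10, AT2G08965 and AT5G00965, also span 1 whole intron, with flanks of 2 and 21 bases and of 13 and 24 bases. Each is printed 5′ to 3′ on the strand of the lncRNA, from the RefSeq TAIR10.1 genome, with the partner intron in capitals and the flanking exon bases in lower case. AT3G08795 lies at chr3:21077044-21077302 on the minus strand, opposite intron 1 of 4 of CRD1 (AT3G56940), a subunit of the cyclase that makes protochlorophyllide. AT4G05785 lies at chr4:6478619-6478855 on the plus strand, opposite intron 2 of 3 of AT4G10480. AT4G04135 lies at chr4:1074079-1074344 on the plus strand, opposite intron 5 of 5 of P23-1 (AT4G02450), a co-chaperone of HSP90.
AT3G08795: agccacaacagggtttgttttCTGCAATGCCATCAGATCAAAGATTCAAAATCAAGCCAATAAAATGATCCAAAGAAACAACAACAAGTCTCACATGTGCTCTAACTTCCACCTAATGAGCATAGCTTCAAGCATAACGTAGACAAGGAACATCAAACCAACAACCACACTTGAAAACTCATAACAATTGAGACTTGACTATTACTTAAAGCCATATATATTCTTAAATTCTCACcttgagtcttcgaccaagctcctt
AT4G05785: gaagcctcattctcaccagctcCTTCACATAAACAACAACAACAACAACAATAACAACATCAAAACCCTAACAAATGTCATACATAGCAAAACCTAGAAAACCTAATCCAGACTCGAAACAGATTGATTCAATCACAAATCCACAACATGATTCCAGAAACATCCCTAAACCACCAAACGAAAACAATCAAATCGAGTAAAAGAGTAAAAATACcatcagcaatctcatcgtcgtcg
AT4G04135: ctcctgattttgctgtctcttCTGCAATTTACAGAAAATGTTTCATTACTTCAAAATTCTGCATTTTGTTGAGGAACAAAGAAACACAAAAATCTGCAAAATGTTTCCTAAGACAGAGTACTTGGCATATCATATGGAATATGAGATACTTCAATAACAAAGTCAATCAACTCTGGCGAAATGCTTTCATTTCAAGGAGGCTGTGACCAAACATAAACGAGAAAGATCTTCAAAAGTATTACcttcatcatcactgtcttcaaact
In each of them the capitals open with CT and close with AC. The flanks are 21 and 24 bases in AT3G08795, 22 and 23 bases in AT4G05785, and 21 and 24 bases in AT4G04135, given 5′ flank first, and all 3 pairs of flanks lie opposite coding sequence.

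A contrasting pair shows the other ends of the range. AT1G09367, at chr1:27491349-27491576 on the minus strand, lies wholly inside an intron of SUVH3 (AT1G73100), a histone methyltransferase family gene, so all of its bases are in capitals. The first 120 bases of AT5G59732 that lie wholly opposite coding sequence, at chr5:24064096-24064215 on the plus strand, face the exocyst gene EXO70H7 (AT5G59730) and hold no capitals.
AT1G09367: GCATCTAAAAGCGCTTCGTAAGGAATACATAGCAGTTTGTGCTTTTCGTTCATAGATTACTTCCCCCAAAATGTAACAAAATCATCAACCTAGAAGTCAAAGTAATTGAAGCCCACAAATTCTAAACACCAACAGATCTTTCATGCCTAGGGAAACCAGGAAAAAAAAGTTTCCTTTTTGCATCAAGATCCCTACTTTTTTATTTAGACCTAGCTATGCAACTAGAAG
AT5G59732: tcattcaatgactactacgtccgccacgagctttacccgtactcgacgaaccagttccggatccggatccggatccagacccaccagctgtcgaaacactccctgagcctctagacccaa

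Exon and intron positions were taken for the 863 pairs in which the TAIR10.1 annotation gives both genes the span they have in the table, which cover 835 lncRNA genes. The lncRNA lay within the partner in 549 pairs (61.6%), the 5′ ends overlapped in 157 (17.6%), the 3′ ends overlapped in 115 (12.9%), and the partner lay within the lncRNA in 70 (7.86%). The median lncRNA gene was 459 bases long, and 641 of the 862 (74.4%) had a single exon. Across the pairs the median lncRNA had 48.1% of its exon bases opposite partner exons, 20.8% opposite coding sequence and 18.7% opposite sequence that is intron in every annotated transcript of the partner. That last figure is called the intron share below, and its quartiles were 0.0% and 81.3%.

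A total of 198 lncRNA genes spanned exactly 1 whole partner intron and ended in the 2 exons beside it. The median shorter flank was 22 bases and the median longer flank 24 bases, and in 102 of the 198 (51.5%) both flanks were 20 to 30 bases long. The spanned intron had a median length of 250 bases and read CT at its start and AC at its end on the lncRNA strand in 186 cases, and GT to AG in 0. It was the first intron in 66 of the 153 partners with at least 2 introns. By contrast, where the lncRNAs had introns of their own, 503 of 541 (93.0%) read GT to AG on the lncRNA strand.

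**Figure D1:**
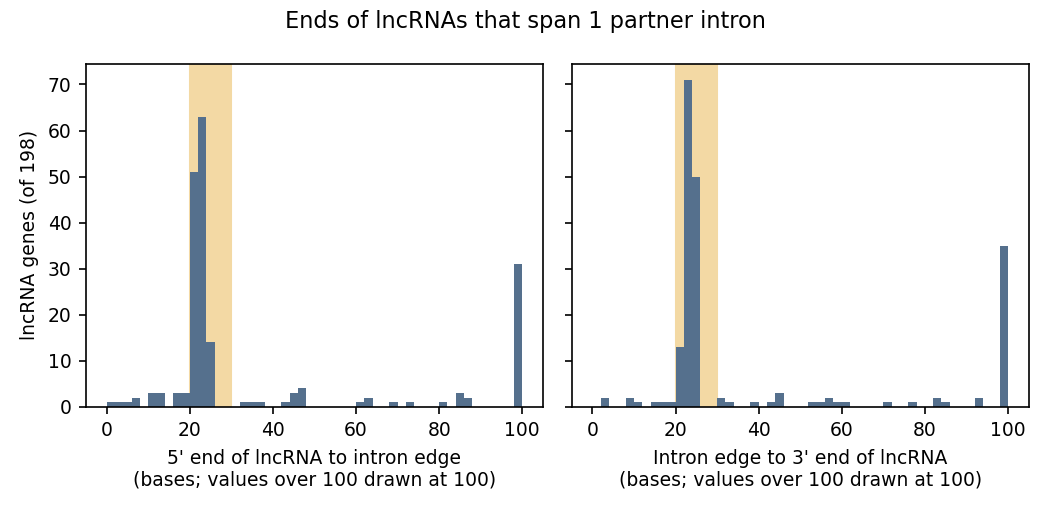
Distance in bases from each end of the lncRNA to the nearer edge of the spanned partner intron, for the 198 lncRNA genes that span exactly 1 whole intron, with the number of genes on the vertical axis. The shaded band marks 20 to 30 bases, in which both flanks lie for 102 genes.

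Levels are given as FPKM (fragments per kilobase of transcript and per M mapped fragments), summed over the transcripts of a gene. Depth, estimated from the spacing of low FPKM values, was 20.1 to 25.8 M fragments in cdc5 and 19.3 to 24.0 M in Col-0, and 3 fragments on a transcript of the median length of 459 bases come to between 0.254 and 0.338 FPKM, a floor that covers counting error only. On a shorter transcript the same 3 fragments come to a higher FPKM. The CDC5 transcript itself (AT1G09770) had 21.8, 21.3 and 21.0 FPKM in cdc5 against 38.2, 37.0 and 36.1 FPKM in Col-0, so it was lower in the mutant but still present at 57.5% of the Col-0 mean. All 3 leaf markers, all 10 floral organ markers and all 5 anther and pollen coat markers had at least 1 FPKM in every library, which goes against rosette leaves alone. The floral organ markers summed to 716 to 732 FPKM in cdc5 against 837 to 896 FPKM in Col-0, and the anther and pollen coat markers to 1510 to 1570 FPKM against 1820 to 2110 FPKM. By the limma test described below, 5 of the 10 floral markers were called lower and 0 higher. Of the 5 anther and pollen coat markers 4 were called lower, and MS1 was called higher. The leaf markers summed to 7030 to 7280 FPKM in cdc5 and 5650 to 6720 FPKM in Col-0, with 2 of the 3 called higher and 0 lower. The markers of a tissue thus did not all change, and the sums weigh the most abundant ones most. Whether a difference in tissue has a part in the changes given below was not tested. In such bulk samples fewer cells of a type and less RNA per cell cannot be told apart.

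As a group, antisense lncRNAs were more often higher than lower in cdc5, and those facing introns accounted for most of the excess. Over all 862 lncRNA genes, with no filter, 316 (36.7%) had all 3 cdc5 libraries above all 3 Col-0 libraries, and 61 (7.08%) had them below. Over all genes of the table the shares were 30.5% higher and 20.8% lower, so the lncRNAs stood above the background in the one direction and well under it in the other. Their median level was 1.05 FPKM in cdc5 and 0.46 FPKM in Col-0. At or under the level of 3 fragments lay 236, 234 and 269 of the lncRNA genes in the cdc5 libraries, and 377, 395 and 375 of them in the Col-0 libraries. The 767 lncRNA genes that overlap no other gene held 49 higher and 45 lower by the same count. Their median levels were 0.0475 FPKM in cdc5 and 0.0557 FPKM in Col-0, under the level of 3 fragments at 459 bases. At such levels few genes can separate, so they are a weak contrast. Of the 70 that reached a mean of 1 FPKM, 13 were called higher and 15 lower by the limma test described next.

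The test across all genes used limma on log2(FPKM + 1), on which a fold change understates the change of low genes, with a Benjamini-Hochberg adjusted p under 0.05 over the 19778 genes that reach a mean of 1 FPKM. Of the 862 lncRNA genes, 389 reached that level, and 163 of them were called higher and 36 lower, with a median log2 fold change of 0.28 against 0.06 over all genes tested. Among all genes tested 33.3% were called higher and 22.4% lower. With no filter, 285 of the 862 were called higher and 40 lower, where 24.6% and 16.7% of all 27947 genes were. A lncRNA that reached the mean of 1 FPKM only through its cdc5 libraries had to differ, so these counts are given as a description. Among the 275 lncRNA genes with a mean of at least 1 FPKM in both genotypes, 75 were called higher and 31 lower, with a median of 0.12. The share called higher, 27.3%, was below the 33.3% of all genes tested, and the share called lower, 11.3%, was below the 22.4%. As a whole, then, the share called higher among lncRNAs detected in both genotypes did not exceed that of all genes. Calls in both directions were fewer than among all genes, and the median of 0.12 stood above the 0.06 of all genes tested.

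Counts differed by the position of the lncRNA, a gene with several partners being counted in the class of each. Of the 549 lncRNA genes lying within their partner, 272 (49.5%) had all cdc5 libraries above all Col-0 libraries and 14 (2.55%) had them below. The other classes held 16 higher and 13 lower of 115 genes with overlapping 3′ ends, 22 and 22 of 157 with overlapping 5′ ends, and 9 and 15 of 68 that contain their partner. In none of these other classes did the share that was higher reach the 30.5% of all genes.

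The share of genes higher in cdc5 followed the intron share step by step. With no base opposite a partner intron, 14 of 256 lncRNA genes (5.47%) were higher in all cdc5 libraries and 31 (12.1%) were lower. Median levels in this class were 0.252 FPKM in cdc5 and 0.237 FPKM in Col-0, near the level of 3 fragments, where counting error can hide a difference. The counts were 52 higher and 19 lower of 186 genes with a share above 0 and under 25%, 35 and 5 of 82 with 25 to 50%, and 28 and 3 of 56 with 50 to 75%. At a share of 75% or more, 177 of 255 (69.4%) were higher and 1 (0.392%) was lower, with median levels of 1.27 FPKM in cdc5 and 0.325 FPKM in Col-0. By the limma test, 94 of the 112 tested genes of this last class were called higher and 0 lower, with a median log2 fold change of 0.90, against 4 higher and 19 lower of 88 tested genes with no base opposite an intron, with a median of -0.13.

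**Figure D2:**
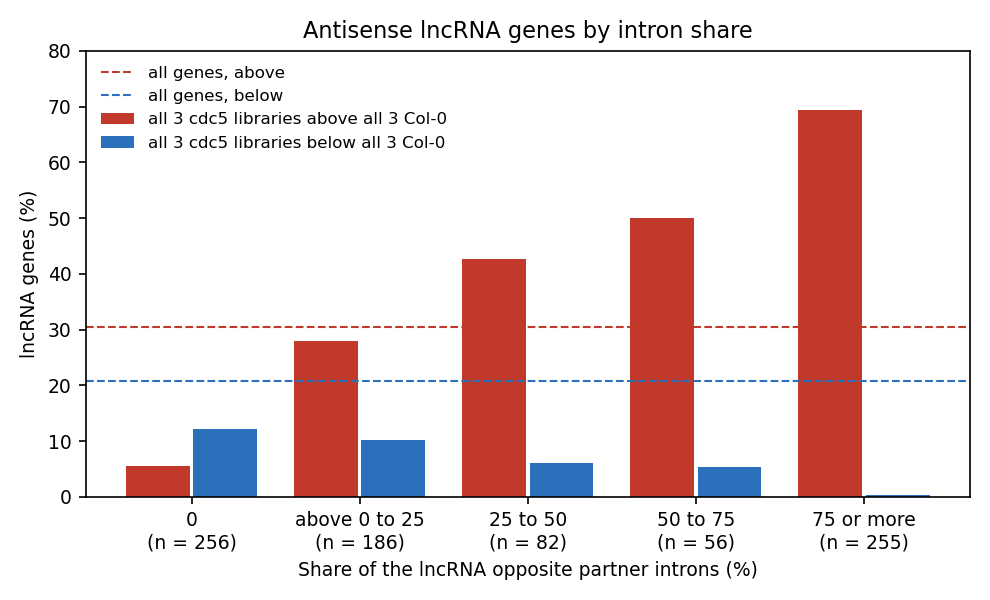
Percent of antisense lncRNA genes, on the vertical axis, whose 3 cdc5 libraries all lay above (red bars) or all lay below (blue bars) the 3 Col-0 libraries, by the percent of the lncRNA opposite partner introns; n is the number of genes in a class. Dashed lines give the same percentages over all genes of the table, 30.5% and 20.8%; the red bar climbs to 69.4% in the last class, and the blue bar drops to 0.392%.

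Classes of intron share differ in other ways as well. Genes at 75% or more had a median length of 319 bases, 98.8% single-exon models, a median GC content of 35.0% and partners with a median of 22.9 FPKM, against 502 bases, 74.6%, 41.5% and 4.92 FPKM in genes with no base opposite an intron. Within the lncRNAs lying inside their partner, 8 of 100 with no base opposite an intron were higher without overlap and 5 lower, while all 255 of the 75% class lie inside their partner. Among single-exon lncRNAs the counts were 177 higher and 1 lower of 252 at 75% or more, and 8 higher and 18 lower of 191 at 0. Among lncRNAs of at least 400 bases, 64 of 78 at 75% or more were higher and 0 lower, against 11 higher and 28 lower of 166 at 0, and among shorter ones 113 and 1 of 177 against 3 and 3 of 90. At a GC content of at least 38%, 12 of 27 at 75% or more were higher and 0 lower, against 10 higher and 27 lower of 183 at 0. Below 38% the counts were 165 and 1 of 228 against 4 and 4 of 73.

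Among the lncRNAs with a mean of at least 1 FPKM in both genotypes, which did not depend on the cdc5 libraries alone to pass, limma called 32 of 46 genes at 75% or more higher (69.6%) and 0 lower. Of the 79 such genes with no base opposite an intron, 3 were called higher (3.8%) and 16 lower (20.3%), against 33.3% and 22.4% of all genes tested. The classes of length, GC content and level were added after the data were seen.

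Within the class at 75% or more, the share of lncRNAs that were higher also climbed with the level of the partner. At 75% or more, the lncRNAs higher in all cdc5 libraries were 20 of 49 with a partner under 10 FPKM, 113 of 158 with a partner at 10 to 50 FPKM, and 44 of 48 with a partner at 50 FPKM or more. At an intron share under 25%, the matching counts were 32 of 279, 29 of 126 and 5 of 37, with no steady climb. The lncRNAs facing introns were thus more often higher within each range of partner level. Along these ranges the median lncRNA level at 75% or more rose as well. It was 0.432, 1.29 and 2.52 FPKM in cdc5 and 0.13, 0.305 and 0.626 FPKM in Col-0. Under 25% it did not rise steadily, at 0.653, 0.851 and 0.731 FPKM in cdc5. Few genes can separate at the lowest levels, so partner level and lncRNA level cannot be told apart in this climb. The partners of the 75% class were called higher in 78 and lower in 60 of 249 tested genes, with a median log2 fold change of 0.04, close to the background of all genes.

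Models that fit 1 intron with short flanks were the most often higher among the forms compared. Of the 102 lncRNA genes with both flanks of 20 to 30 bases, 76 (74.5%) were higher in all cdc5 libraries and 0 were lower. The limma test called 48 of the 51 tested higher, with a median log2 fold change of 1.03. Those 51 could pass the filter through their cdc5 libraries alone, so the 48 calls are a description. Of the 96 genes that span 1 intron with another flank length, 56 (58.3%) were higher and 2 lower. Some of these have long flanks and so a low intron share, such as AT2G33815 with flanks of 322 and 633 bases and a share of 1.44%. Flank length and intron share therefore cannot be told apart in this comparison. Those at 75% intron share or more that span no whole intron were higher in 65 of 104 (62.5%), and those with both ends inside introns in 21 of 34 (61.8%). The band of 20 to 30 bases was chosen after the flank lengths were seen. Whether intron-containing RNA of the partner contributed fragments to these models was not tested, and the use of strand in the assignment of fragments is not stated by the sources.

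The lncRNA level relative to its partner was also compared by class within each library. For the 124 pairs at 75% intron share or more whose partner had at least 20 FPKM in every library, the median lncRNA stood at 2.94, 3.07 and 3.45% of its partner's FPKM in the cdc5 libraries and at 0.688, 0.872 and 0.765% in the Col-0 libraries. For the 58 such pairs with no base opposite an intron it stood at 0.369, 0.282 and 0.16% in cdc5 and at 0.324, 0.323 and 0.296% in Col-0. The genotypes did not overlap in the pairs facing introns, and they overlapped in the pairs with no base opposite an intron. The 28 pairs with a share above 0 and under 25% had 4.77, 3.7 and 5.58% in cdc5 and 2.53, 1.63 and 2.41% in Col-0, again without overlap. They stood above the pairs at 75% or more in every library, so these levels did not follow the order of intron share.

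**Figure D3:**
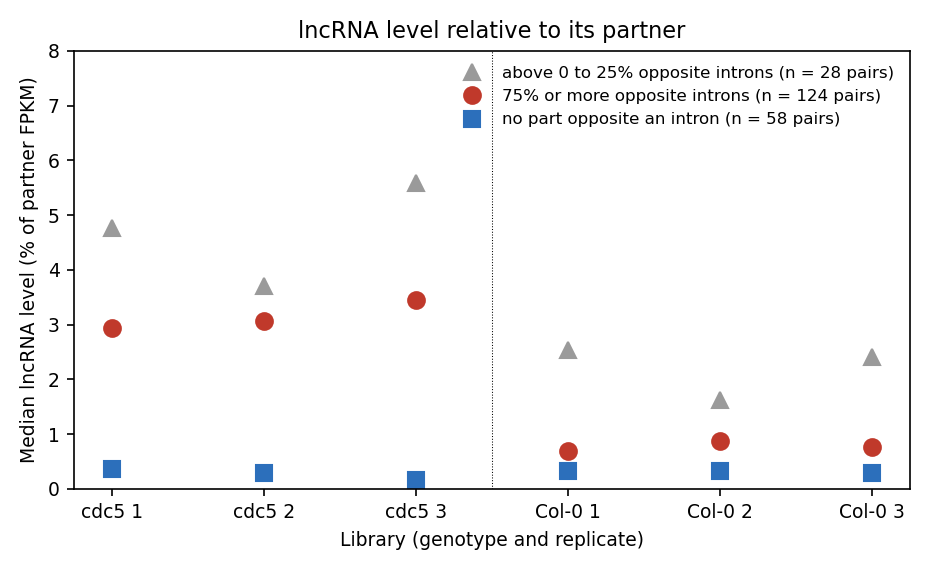
Median lncRNA level as a percent of the partner's FPKM in each library, cdc5 replicates 1 to 3 left of the dotted line and Col-0 replicates 1 to 3 right of it, for pairs whose partner has at least 20 FPKM in every library. Red circles (75% or more opposite introns) lie at 2.94 to 3.45% in cdc5 and 0.688 to 0.872% in Col-0, while blue squares (no base opposite an intron) overlap between the genotypes.

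The 10 lncRNA genes with the highest log2 fold changes were taken from those called, without overlap between genotypes and with a mean of at least 2 FPKM in the higher genotype. All 10 lay within their partner. That all 3 cdc5 libraries exceeded all 3 Col-0 libraries in them follows from this rule. AT3G03475, opposite METK4 (AT3G17390), a gene for S-adenosylmethionine synthetase, had 10.7, 7.9 and 12.5 FPKM in cdc5 replicates 1, 2 and 3 and 0.17, 0.737 and 0.177 FPKM in Col-0 replicates 1, 2 and 3. The log2 fold change of the lncRNA was 3.07, with an SE of 0.2 and a limma adjusted p of 2e-05, and METK4 itself was called higher by 0.19, with 325, 337 and 326 FPKM in cdc5 against 289, 282 and 293 FPKM in Col-0. The libraries of both genes were apart between genotypes, and the lncRNA stayed far below its partner in every library. Several of these 10 lncRNAs lay under the level of 3 fragments in Col-0, AT5G02905 in all 3 Col-0 libraries, so the size of such fold changes is uncertain.

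Another 3 of these genes are those whose sequences are printed above. AT3G08795, across intron 1 of CRD1, had 8.83, 6.67 and 6.8 FPKM in cdc5 against 1.39, 0.352 and 0.107 FPKM in Col-0 (log2 fold change 2.45 ± 0.3, limma adjusted p = 0.00085). CRD1 was also called higher, at 506, 527 and 536 FPKM in cdc5 against 363, 373 and 330 FPKM in Col-0, a log2 fold change of 0.56. The lncRNA-to-partner ratio differed by 1.9 ± 0.3 on the log2 scale (SE, limma adjusted p = 0.0054). The lncRNA was chosen for its fold change and had a Col-0 mean of 0.618 FPKM, so it passed the filter through its cdc5 libraries. This ratio is thus a description and adds no separate support.

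AT4G05785, across intron 2 of AT4G10480, had 6.73, 5.24 and 6.7 FPKM in cdc5 and 0.715, 0.474 and 0.242 FPKM in Col-0, with a log2 fold change of 2.29 against 0.45 for its partner. AT4G04135, across the last intron of P23-1, had 4.68, 2.81 and 3.98 FPKM in cdc5 and 0.00452, 0.476 and 0.496 FPKM in Col-0, with a log2 fold change of 1.87. P23-1 moved the other way, with 171, 179 and 169 FPKM in cdc5 against 189, 204 and 192 FPKM in Col-0, a log2 fold change of -0.17 that limma called at an adjusted p of 0.0051 but not after cyclic loess scaling. In both pairs the libraries of the genotypes do not overlap for either gene, and the lncRNA changed more than its partner.

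AT1G09367, the lncRNA wholly inside an intron of SUVH3, had 7.37, 6.77 and 8.94 FPKM in cdc5 against 1.2, 1.47 and 0.876 FPKM in Col-0, a log2 fold change of 2.00. SUVH3 was called higher too, at 12.9, 12.0 and 12.3 FPKM in cdc5 against 8.62, 7.47 and 7.67 FPKM in Col-0 (log2 fold change 0.59). AT1G07603, 76.7% opposite introns of the alpha-tubulin gene TUBA4, had 8.1, 8.29 and 7.27 FPKM in cdc5 and 1.3, 1.1 and 1.28 FPKM in Col-0, also a log2 fold change of 2.00. TUBA4 did not pass the test, at 374, 393 and 380 FPKM in cdc5 against 371, 356 and 359 FPKM in Col-0 (limma adjusted p = 0.056).

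The remaining 4 of the 10 were opposite introns for 90.1 to 92.6% of their exon bases. AT2G08965, opposite the defence transcription factor gene WRKY33, had 6.48, 4.15 and 5.43 FPKM in cdc5 and 0.244, 0.617 and 0.955 FPKM in Col-0, while WRKY33 was called lower by 0.22 on the log2 scale, at 34.7, 33.2 and 34.8 FPKM against 41.0, 39.4 and 39.5 FPKM. AT5G02905, opposite TON2, a phosphatase regulatory subunit gene that orients the cell division plane, had 3.17, 2.49 and 4.15 FPKM in cdc5 and 0.0, 0.185 and 0.135 FPKM in Col-0. AT3G01375, opposite AT3G03920, had 3.24, 5.07 and 5.67 FPKM in cdc5 and 0.456, 0.457 and 0.921 FPKM in Col-0. The fourth, AT5G00965 opposite NAC078, is among the pairs that moved in opposite directions and is described with them.

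**Figure D4:**
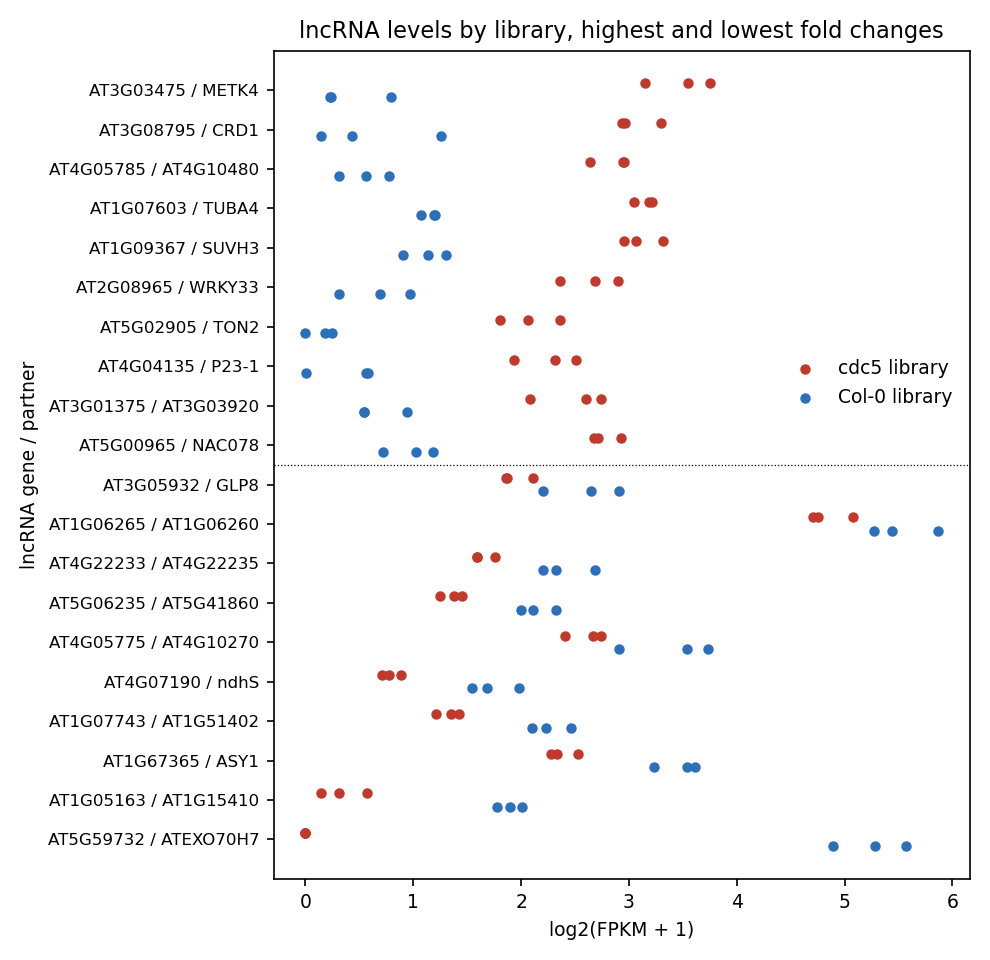
Level on the log2(FPKM + 1) scale in each library for the 10 lncRNA genes with the highest log2 fold change (above the dotted line) and the 10 with the lowest (below it), each labelled with its partner. Red points are the 3 cdc5 libraries and blue points, drawn just under them, the 3 Col-0 libraries; the 2 sets of points do not overlap in any of the 20 genes, by the rule that chose them.

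The 10 lncRNA genes with the lowest fold changes, taken by the same rule, had a different layout: none of them lay within its partner. In 5 of them the 5′ ends overlapped, in 3 the 3′ ends, and in 2 the partner lay within the lncRNA. AT5G59732, the sequence without capitals above, was listed at 0 in all 3 cdc5 libraries and had 46.6, 37.9 and 28.7 FPKM in Col-0. Its partner EXO70H7 had 46.9, 43.4 and 46.5 FPKM in cdc5 against 11.6, 0.495 and 26.9 FPKM in Col-0, so that the level of the partner was high where the lncRNA was listed at 0. Summed over the 2 genes, with each FPKM multiplied by length, the pair held 108, 99.7 and 107 fragments per M mapped in cdc5 against 130, 85.7 and 126 in Col-0, and on this sum the genotypes overlapped.

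AT1G67365, whose 3′ end overlaps that of the meiotic axis gene ASY1, had 3.86, 4.77 and 4.05 FPKM in cdc5 against 10.6, 11.2 and 8.38 FPKM in Col-0 (log2 fold change -1.08 ± 0.11, SE, limma adjusted p = 7e-05). ASY1 stayed under 1 FPKM in all libraries and was not tested. AT1G05163, overlapping the 5′ end of AT1G15410, had 0.244, 0.107 and 0.486 FPKM in cdc5 and 2.73, 2.42 and 3.03 FPKM in Col-0, a log2 fold change of -1.55. Its partner was lower as well, at 10.3, 9.3 and 9.19 FPKM in cdc5 against 13.6, 12.4 and 13.1 FPKM in Col-0.

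AT4G07190 had 0.707, 0.639 and 0.849 FPKM in cdc5 and 2.21, 1.91 and 2.94 FPKM in Col-0, a log2 fold change of -0.94. It overlaps the 5′ end of ndhS, a subunit of the chloroplast NDH complex, whose own call at -0.13 was lost under 9 of the alternatives. The others were AT1G07743 at -0.94, AT4G05775 at -0.79, AT5G06235 at -0.78, AT4G22233 at -0.76, AT1G06265 at -0.68 and AT3G05932 at -0.65. The calls of AT4G05775, AT1G06265 and AT3G05932 were each lost when certain single libraries were left out.

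Over the 343 pairs in which both genes were tested, lncRNA and partner were both higher in 47 pairs and both lower in 9. Some lncRNAs passed the filter only through their cdc5 libraries and so had to differ, and the joint calls are given as a description. The lncRNA was higher and the partner lower in 46 pairs, and the lncRNA lower and the partner higher in 2. In 65 pairs only the lncRNA was called higher and in 16 only the lncRNA lower, in 20 only the partner higher and in 45 only the partner lower, and in 93 neither gene was called. A lncRNA called higher thus stood beside a partner called higher about as often as beside a partner called lower. Of all 738 tested partners, 195 (26.4%) were called higher and 180 (24.4%) lower, so partners in general showed a similar near-equal split. Without Col-0 replicate 3 the 46 pairs became 30. Across the 343 pairs the log2 fold changes of lncRNA and partner had a Pearson r of -0.07 and a Spearman rho of 0.14, given as a description because the pairs share libraries. In the 111 pairs at 75% intron share or more r was 0.32 and rho 0.29, and in the 75 pairs with no base opposite an intron r was -0.39 and rho -0.23.

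The lncRNA-to-partner ratio was fitted with limma over all 2325 opposite-strand gene pairs of any type in which both genes were tested. The first gene of a pair was the lncRNA in the lncRNA pairs, and in all others the gene with the shorter span. Of all pairs, 23.3% were called with the first gene higher relative to the second, 26.7% with it lower, and 50% in either direction. Among the 343 lncRNA pairs, 146 ratios were called higher in cdc5 and 11 lower, with a median log2 change of 0.52. Among the 1982 other opposite-strand pairs, 395 were called higher and 610 lower for the shorter gene over the longer, with a median of -0.08. These directions are therefore not a background for antisense over sense. For intron shares of 75% or more the counts were 90 higher and 0 lower of 111, and with no base opposite an intron 7 higher and 5 lower of 75. Of the 112 tested lncRNA genes at 75% or more, 46 had a mean of at least 1 FPKM in both genotypes. A lncRNA that passed the filter only through its cdc5 libraries had to differ, so these ratio counts are a description.

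**Figure D5:**
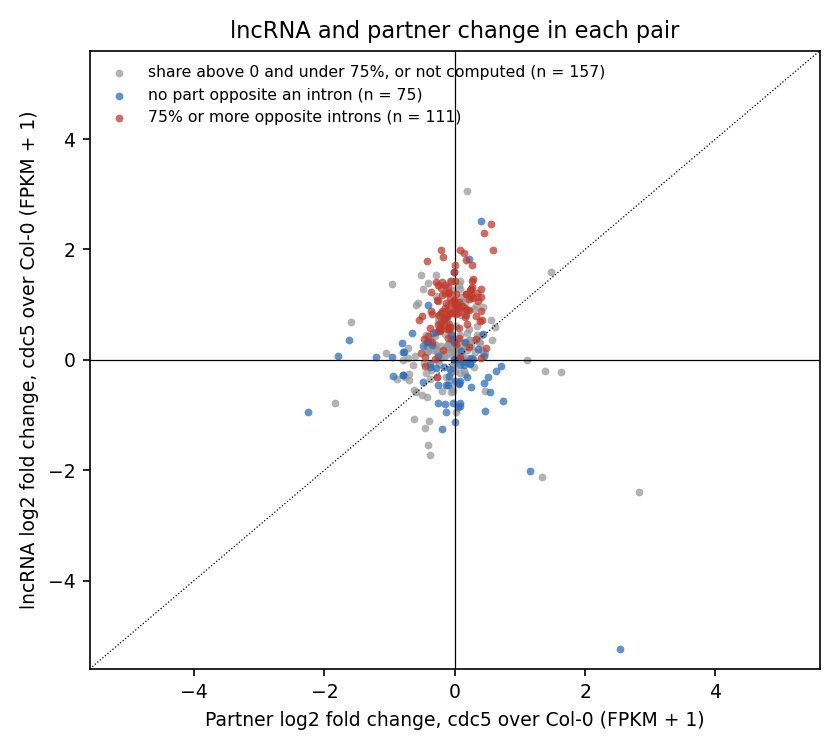
Log2 fold change, cdc5 over Col-0 on the log2(FPKM + 1) scale, of the partner (horizontal axis) and of the lncRNA (vertical axis) in the 343 pairs with both genes tested; the dotted line marks equal change. Red points (75% or more opposite introns, n = 111) lie mostly above 0 on the vertical axis whatever the partner did, while blue points (no base opposite an intron, n = 75) spread to both sides. A lncRNA could pass the filter through its cdc5 libraries alone.

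A set of 8 pairs is named for opposite calls and the smallest limma adjusted p of the ratio, and in each the lncRNA was higher and the partner lower. Among their lncRNAs, AT3G03105 had a Col-0 mean of 1.98 FPKM, and all others had Col-0 means under 1 FPKM. Those others passed the filter through their cdc5 libraries and so had to differ. The fold changes and ratios of this set are therefore a description. AT5G00965, 90.1% opposite introns of NAC078, a gene for a NAC transcription factor, had 5.55, 5.41 and 6.61 FPKM in cdc5 and 1.04, 1.27 and 0.643 FPKM in Col-0. NAC078 had 58.3, 57.2 and 59.8 FPKM in cdc5 and 81.8, 76.6 and 78.1 FPKM in Col-0. Neither gene's libraries overlapped between genotypes, and the log2 ratio differed by 2.22 ± 0.13 (SE, limma adjusted p = 2.7e-05).

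The metallothionein gene MT3, whose product binds copper and zinc, had 587, 604 and 581 FPKM in cdc5 and 833, 844 and 855 FPKM in Col-0. Its antisense lncRNA AT3G03105 had 7.74, 8.24 and 6.78 FPKM in cdc5 and 2.19, 2.2 and 1.55 FPKM in Col-0. The log2 fold changes were 1.53 for the lncRNA and -0.51 for MT3, and both pairs of groups were apart.

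AT1G08733, across the first of 3 introns of VTE4, the tocopherol methyltransferase gene, had 3.6, 2.71 and 2.75 FPKM in cdc5 and 0.731, 0.845 and 0.761 FPKM in Col-0. VTE4 had 111, 115 and 111 FPKM in cdc5 and 130, 126 and 129 FPKM in Col-0. AT1G06753, across the only intron of STOP1, a gene for a zinc finger factor of acid and aluminium tolerance, had 2.21, 2.86 and 2.45 FPKM in cdc5 and 0.229, 0.269 and 0.471 FPKM in Col-0, a log2 fold change of 1.41 against -0.20 for STOP1.

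AT3G03535 had 3.72, 3.42 and 3.04 FPKM in cdc5 and 0.616, 0.844 and 0.572 FPKM in Col-0, with AT3G17800 opposite it lower by 0.41 on the log2 scale. It had an intron share of 21.8%, so not all pairs of this kind face mainly introns. The other 3 lncRNAs were AT3G07705 opposite the gene the table names PSY2 (AT3G47295), AT3G09985 opposite the ribosomal protein gene RPL1 and AT1G09897 opposite AT1G79660, with log2 fold changes of 1.54, 1.31 and 1.35. In Col-0 AT3G09985 had only 0.336, 0.134 and 0.425 FPKM, under the level of 3 fragments for its length in every library. AT1G06753 and AT1G09897 also lay under that level in some Col-0 libraries, so the size of these fold changes is uncertain. The partners of AT3G07705, AT3G09985 and AT1G09897 changed little, at -0.29, -0.10 and -0.16. Their calls, like that of STOP1, were lost under several alternatives, and adjustment for length and GC content put RPL1 at 0.00.

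Partners were also grouped by name patterns into 8 lists, which describe the pairs and were not tested as sets. Their counts stand beside the 33.3% called higher and 22.4% called lower of all genes tested, and most lists are too small to be read against those shares. Of the 12 lncRNAs opposite genes of transcription factor families, 8 were tested, and 3 were called higher and 2 lower, while 8 of the 12 partners were lower and 0 higher. AT5G40348, which contains the stamen factor gene MYB24, was called lower, at 9.99, 8.33 and 10.8 FPKM in cdc5 against 12.5, 14.2 and 11.7 FPKM in Col-0. Of the 6 lncRNAs opposite ribosomal protein genes, all 6 were tested, with 3 called higher and 1 lower. AT4G06695, across intron 2 of RPL15B, had 8.39, 7.92 and 7.7 FPKM in cdc5 and 1.7, 2.28 and 2.03 FPKM in Col-0. AT3G03025, across intron 2 of RPS20, had 5.82, 3.88 and 3.85 FPKM in cdc5 and 1.39, 1.35 and 1.44 FPKM in Col-0. RPL15B and RPS20 themselves were not called, at -0.01 and 0.03 on the log2 scale, and with cyclic loess scaling RPL15B was at 0.11.

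In the photosystem list 1 of 2 lncRNAs was tested, AT1G05207 opposite LHCB6, a light-harvesting antenna protein gene. It had 52.6, 49.9 and 46.9 FPKM in cdc5 and 22.2, 26.0 and 19.0 FPKM in Col-0, a log2 fold change of 1.13, while LHCB6 had 1110, 1200 and 1140 FPKM in cdc5 and 1040, 1120 and 1070 FPKM in Col-0. The antisense groups are well apart and the LHCB6 groups overlap. Among 4 lncRNAs in the splicing factor list 3 were tested and 2 called higher. AT2G08865 opposite RS2Z33, an SR protein gene, had 4.03, 4.92 and 4.86 FPKM in cdc5 against 2.16, 2.3 and 1.33 FPKM in Col-0. The partners SRP14 and SRK2I entered that list only by their letters and encode no splicing factor, and the second lncRNA called higher, AT5G09785, is the one opposite SRK2I.

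The jasmonate list held 1 lncRNA, AT5G03235 opposite TIFY3B, a JAZ repressor gene, called higher at 4.42, 2.49 and 2.51 FPKM in cdc5 against 0.652, 0.0186 and 1.34 FPKM in Col-0, a call lost with a pseudocount of 0.1 and without Col-0 replicate 1. Of 5 lncRNAs in the cold and abscisic acid list 3 were tested and 1 called higher, AT3G03815 opposite ABF4, a bZIP factor gene of abscisic acid signalling, at 1.99, 3.2 and 2.46 FPKM in cdc5 against 0.83, 0.652 and 0.628 FPKM in Col-0. The other 2 tested, AT2G09710 opposite ABIL1 and AT4G06985 opposite ERDJ2B, have partners matched by letters only, and neither was called. In the heat shock list 1 of 3 lncRNAs was tested and 0 called, and all 3 partners were lower. That lncRNA, AT3G07365, had 0.0672, 0.0628 and 0.0721 FPKM in cdc5 and 0.0619, 0.0677 and 6.73 FPKM in Col-0, so its mean rests on 1 library, whereas HSP17.4A opposite it had 98.9, 107 and 92.7 FPKM in cdc5 and 516, 463 and 459 FPKM in Col-0.

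In the flowering and clock list 1 of 6 lncRNAs was tested and 0 called. This was AT2G33815 opposite SPL3, a promoter of flowering targeted by miR156, at 1.47, 1.51 and 1.43 FPKM in cdc5 and 1.97, 1.39 and 2.54 FPKM in Col-0, with overlap. SPL3 was lower, at 134, 133 and 130 FPKM in cdc5 against 170, 188 and 180 FPKM in Col-0. AT5G01675, the COOLAIR locus opposite FLC, had 0.286, 0.0 and 0.456 FPKM in cdc5 and 0.36, 0.367 and 0.384 FPKM in Col-0, close to the floor of detection and untested, with FLC at 1.68, 1.07 and 1.08 FPKM in cdc5 against 2.3, 3.19 and 3.14 FPKM in Col-0. AT1G69572, the FLORE locus opposite the clock output gene CDF5, had 0.75, 0.302 and 0.139 FPKM in cdc5 and 0.0, 0.118 and 0.0 FPKM in Col-0, also untested.

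The lncRNAs with the highest levels included some with nearly all of their exon bases opposite partner exons. AT2G08665, which contains the light-harvesting gene LHB1B2, had 2110, 2070 and 1790 FPKM in cdc5 and 2480, 1730 and 2320 FPKM in Col-0. LHB1B2 had 333, 398 and 672 FPKM in cdc5 and 82.4, 1150 and 210 FPKM in Col-0. In Col-0 replicate 2 the partner was highest where the lncRNA was lowest, and in cdc5 replicate 3 the same held.

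AT1G06002 opposite UGT89C1, a flavonol rhamnosyltransferase gene, had 112, 145 and 85.9 FPKM in cdc5 and 129, 99.9 and 93.8 FPKM in Col-0, with UGT89C1 listed at 0 in cdc5 replicate 2. AT2G23672 opposite YCF37 had 79.9, 81.0 and 75.8 FPKM in cdc5 and 77.5, 88.5 and 83.6 FPKM in Col-0. AT1G25098 opposite AT1G25097 had 72.8, 54.4 and 103 FPKM in cdc5 and 112, 131 and 142 FPKM in Col-0, without overlap but at a limma adjusted p of 0.071. None of these 4 lncRNAs passed the test.

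A value of 0 in 1 library beside at least 5 FPKM in another of the same genotype occurred in 9 of the 389 tested lncRNA genes (2.31%) and in 9 of the 738 tested partners (1.22%), against 47 of all 19778 tested genes (0.238%). An example is AT3G22121, opposite the cell wall protein gene CWLP, with 42.8, 47.3 and 0.0 FPKM in cdc5 and 57.0, 83.9 and 62.6 FPKM in Col-0. Its fold change did not pass the test (limma adjusted p = 0.33), nor did that of CWLP, with 68.0, 49.9 and 106 FPKM in cdc5 and 29.8, 25.7 and 0.28 FPKM in Col-0.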

How the data were processed

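The authors deposited a table of FPKM values per transcript in 6 libraries, 3 of cdc5 and 3 of Col-0, with a ratio of means (fold), its log2 and p-values and q-values from a test the table does not name. The deposited fold and log2 fold columns were checked against the FPKM and not used further, and the authors' p-values and q-values were left out. Per the submitters' processing notes, which give no roles, the tools included StringTie 1.3.4d, HISAT2 2.0.4 and cutadapt 1.9, beside edgeR and DESeq2. The notes name a mouse build that cannot apply. Neither the use of strand in quantification nor the splitting of shared fragments is stated, and either could move antisense values. The table holds no counts and none were recovered: after dividing by the fitted step, 66.4 to 70.2% of low values came within 0.1 of a whole number.

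FPKM of a gene's transcripts were summed, and genes averaging 1 FPKM or more across the 6 libraries were fitted with limma 3.58.1 in R 4.3.3 on log2(FPKM + 1), with a trend, robust moderation and no covariate. Pairs were fitted the same way on the difference of the 2 log2 values, with the mean level of the pair as the trend. Adjusted p-values are Benjamini-Hochberg over all genes, or all opposite-strand pairs, tested. With 3 libraries against 3, an exact two-sided permutation test of a single value cannot go below p = 0.10, so none is given. RefSeq TAIR10.1, which matched the span of 97.8% of the table's 27696 nuclear genes, supplied exons, introns (20 bases or more) and sequence. The fits were tested on simulated data.

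The lncRNAs named are the 10 highest and 10 lowest fold changes among those called, without overlap and with a mean of at least 2 FPKM in the higher genotype; those opposite genes with a studied antisense RNA; up to 3 per partner list; the 8 pairs with the smallest adjusted p of the ratio and opposite calls; and the 5 with the highest level, of which 1 is not reported here. AT3G22121 was chosen after its values were seen. The members, lists and classes of intron share were chosen with earlier results of these data known. Alternatives changed the pseudocount, filter, scaling, block, libraries, moderation, overlap and level of summing. Tables and plots used Python 3.11.15, numpy 2.4.6, pandas 2.3.3, matplotlib 3.10.9 and data.table (version 1.17.8).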

Additional observations from a re-analysis of the deposited data

How the results depend on the processing

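Depth limits the lowest lncRNAs, many of which lay near 3 fragments in Col-0, and the filter on mean level moved the counts most. With no filter, 285 lncRNA genes were called higher; the pairs became 86 both higher, 143 with only the lncRNA higher, 30 with only the lncRNA lower, 102 with only the partner higher and 119 with only the partner lower; 257 ratios were higher and 40 lower; and 170 genes at 75% intron share or more and 8 with none were higher. With a filter at 5 FPKM, 26 lncRNA genes were higher and 17 lower; 3 pairs were both higher, 3 both lower, 10 lncRNA higher with partner lower and 0 the reverse; 9 had only the lncRNA higher, 5 only the lncRNA lower, 2 only the partner higher and 11 only the partner lower; 23 ratios were higher and 4 lower; 7 genes at 75% intron share or more were higher, and of those with none 1 was higher and 11 lower.

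Cyclic loess scaling and the length and GC adjustment each left 0 pairs with the lncRNA lower and the partner higher, and length and GC adjustment put 10 genes with no intron share higher; the median log2 fold change of all genes was 0.06 as deposited, 0.01 under either of them and 0.07 with a pseudocount of 0.1. Testing single transcripts gave 15 lncRNA transcripts lower, 116 partner transcripts higher, 25 pairs both higher, 1 both lower, 19 lncRNA higher with partner lower, 0 the reverse and 10 with only the lncRNA lower, and of those with no intron share 2 higher and 8 lower. With an overlap of at least 50% of the lncRNA span, 4 pairs were both lower, 1 had the lncRNA lower and the partner higher, 7 ratios were lower and 2 genes with no intron share were higher. Without members that overlap a gene besides their partner, 5 pairs were both lower, 7 ratios lower and 2 genes with no intron share higher. At an intron share of 50% or more 2 genes were lower, and at 90% or more 37 were higher. The cause of these shifts was not tested. Some of these constructions admit a smaller or larger number of genes, while the scalings and the pseudocount kept the same 19778.

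Leaving out each library in turn gave 145 to 152 lncRNA genes higher and 30 to 34 lower, 161 to 179 partners higher and 150 to 165 lower, 35 to 43 pairs both higher and 6 to 9 both lower, 30 to 38 lncRNA higher with partner lower and 0 to 3 the reverse, 67 to 80 with only the lncRNA higher and 14 to 16 lower, 15 to 27 with only the partner higher and 41 to 50 lower, and 132 to 142 ratios higher and 9 to 13 lower. At 75% intron share or more, 86 to 91 were higher and 0 to 1 lower, and with none 3 to 5 higher and 15 to 17 lower.

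Same-numbered libraries did not deviate together (correlations 0.043, 0.059 and 0.004), so the numbers were not read as pairs. With a replicate block, 156 lncRNA genes were called higher and 34 lower, and 1 pair had the lncRNA lower and the partner higher. Of the named genes, 3 changed sign under an alternative: RPL1 (AT3G63490) was at 0.00 with the length and GC adjustment, RPL15B (AT4G17390) at 0.11 with cyclic loess scaling, and the lncRNA AT4G06985 at 0.30 without cdc5 replicate 3, against as low as -0.81 without cdc5 replicate 1.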

Other observations

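Genes of other types that lie in introns for at least 75% of their bases gave these counts beside the antisense lncRNAs. Of 45 snoRNA genes, which guide modification of ribosomal RNA and lie on the same strand as their host, 33 (73.3%) had all cdc5 libraries above all Col-0 libraries and 0 had them below. limma called 25 of the 35 tested snoRNA genes higher and 0 lower, with a median log2 fold change of 1.26. Of 28 genes typed ncRNA on the opposite strand, 19 (67.9%) were higher without overlap and 0 lower. Of 21 tRNA genes on the opposite strand 9 were higher and 1 lower, and of 13 protein-coding genes on the opposite strand 3 were higher and 3 lower. On the same strand as the host, miRNA genes were higher in 2 and lower in 2 of 24, tRNA genes in 1 and 1 of 6, and protein-coding genes in 6 and 2 of 11. The remaining types held at most 5 genes each: on the opposite strand 1 of 5 miRNA and 1 of 3 snRNA genes were higher, as was 1 of 2 snRNA genes on the same strand, and 0 were lower. Over all genes the shares were 30.5% higher and 20.8% lower. Differences between these types were not tested.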
